A study of Mus musculus with 8 samples.

Results

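Genes for DNA replication and nucleotide supply were examined in adipose tissue macrophages (ATMs), comparing obese (HFD-fed) with lean (LFD-fed) mice. The list held 48 genes, chosen by exact gene symbol: the proteins that license and unwind origins, the replicative polymerases, the clamp and its loader, the enzymes of deoxynucleotide supply, the factors that copy chromatin and the regulators of entry into S phase. Of these, 44 were found among the 18820 genes measured by a feature with a single symbol, each taken at its brightest probe set (the group of probes summarised to 1 value). Gins2, Rfc4, Tyms and Ccne2 lay only on features that carry several symbols and were not read. All pools came from male wildtype C57Bl/6 mice, whose age is not given in the sources used here. ATMs were taken from epididymal fat with magnetic beads against the surface protein that Adgre1 encodes. In each of 4 experiments 1 array held a pool of ATMs from HFD-fed mice and 1 array a pool from LFD-fed mice, so that each diet has 4 arrays. By the labels, the lard-based HFD held 45 kcal% fat (the share of energy) for experiments 1 and 3, 60 kcal% for 2 and 4, and the LFD held 10 kcal%, and the diets lasted 16, 15, 16 and 10 weeks in experiments 1, 2, 3 and 4. Every level below is the deposited log2 value after RMA (robust multi-array averaging), and every difference is HFD minus LFD on that log2 scale. Levels of different genes cannot be compared on this scale.

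DNA is copied once per cell cycle. In G1 phase the origin recognition complex, Cdc6 and Cdt1 load the ring-shaped MCM complex onto DNA. At the start of S phase Cdc45 and the GINS complex join it to form the active helicase, and polymerases alpha, epsilon and delta copy the strands with the PCNA clamp while ribonucleotide reductase and thymidine kinase supply the building blocks. Much of this machinery is transcribed under the E2F factors, which the retinoblastoma proteins hold in check until cyclins drive the cell into S phase, and macrophages of fat are known to be able to divide in the tissue.

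The sort was checked with markers. Array medians lay between 4.25 and 4.39. Adgre1, the macrophage marker of the sort, had levels of 8.58, 10.70, 10.67 and 10.19 in the HFD pools of experiments 1 to 4 and of 6.54, 10.27, 10.95 and 9.95 in the LFD pools. Both pools of experiment 1 were thus lower than all others. Pecam1, a marker of endothelial cells, was at 11.10, 8.71, 8.78 and 8.32 in HFD pools and 11.35, 9.44, 6.74 and 9.95 in LFD pools. Both pools of experiment 1 were above all others, and the HFD pool was the higher one only in experiment 3. In bulk RNA, fewer cells of a type and less RNA per cell cannot be told apart. Counts without experiment 1 are given beside the results.

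As a group, replication genes stood higher in obese ATMs, by small amounts. The difference was above 0 for 41 of 44 genes, against 9664 of all 18820 genes. Its median was 0.29, against a median of 0.0049 over all genes. In all 4 experiments 24 of 44 (54.5%) were higher in the HFD pool, against 11% of all genes, and 0 were lower in all 4, against 7.43% of all genes. These 24 were Cdt1, Mcm2, Mcm3, Mcm4, Mcm5, Mcm6, Mcm10, Cdc45, Gins1, Pola1, Prim2, Pold3, Pole, Pole2, Rfc5, Rpa1, Fen1, Lig1, Rrm2, Tk1, Chaf1b, E2f1, Ccne1 and Dtl. The mean difference passed 0.5 for 10 genes, which were Cdt1, Mcm5, Mcm6, Mcm10, Gins1, Pole, Rrm2, Tk1, Chaf1b and Dtl. The share of all genes past 0.5 was not counted. The upper quartile of the difference was 0.11 over all genes and 0.46 over the members. Genes of the list are not independent of each other, and the list was chosen with earlier results of these data known. These counts carry no test.

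No single gene passed the test. In limma, a linear model that shares the estimate of spread over genes, 0 of 44 members and 0% of all 18820 genes reached an adjusted p of 0.05 (Benjamini-Hochberg), and the smallest adjusted p was 0.982. At an unadjusted p under 0.05 in limma, 6 members were higher (13.6%, against 3.3% of all genes), namely Mcm6, Prim2, Pold3, Rrm2, Chaf1b and Ccne1, and 0 were lower, against 1.51% of all genes. With experiment as a block, which compares the pools within each experiment, 22 members were higher at an unadjusted p under 0.05 (50%, against 7.95% of all genes) and 0 were lower (against 4.16%). These were the 6 above with Cdt1, Mcm2, Mcm3, Mcm4, Mcm5, Mcm10, Gins1, Pole, Pole2, Pcna, Rfc5, Fen1, Lig1, Tk1, E2f1 and Dtl. The adjusted count with the block was again 0 members and 0% of all genes, and the smallest adjusted p of a member was 0.0881, for Gins1. Every HFD pool was above every LFD pool for 2 members (4.55%, against 1.19% of all genes), which were Rrm2 and Ccne1. The count of 6 was between 2 and 15 when 1 array was left out, and the share of all genes moved as well. It was 15 without the HFD pool of experiment 1 (against 5.68% of all genes), 11 without the LFD pool of experiment 3 (4.97%) and 7 without that of experiment 4 (3.43%). It was 3 without the HFD pool of experiment 2 (2.47%) or 4 (1.7%), and 2 without the HFD pool of experiment 3 (1.84%) or the LFD pool of experiment 1 (3.58%) or 2 (1.75%). Without both pools of experiment 1 it was 11 (against 6.26% of all genes), and 25 of 44 were higher in all of experiments 2, 3 and 4 (against 17.4% of all genes). With each array centred on its median, 20 members were higher in all 4 experiments (against 6.23% of all genes) and 0 were lower (against 12.3%), and 2 members were higher at the unadjusted threshold (against 1.66%). That centring also changed the split over all genes, at the same threshold, from 621 higher and 284 lower to 312 higher and 402 lower, and moved the median of all genes to -0.05 and that of the members to 0.24.

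**Figure D1:**
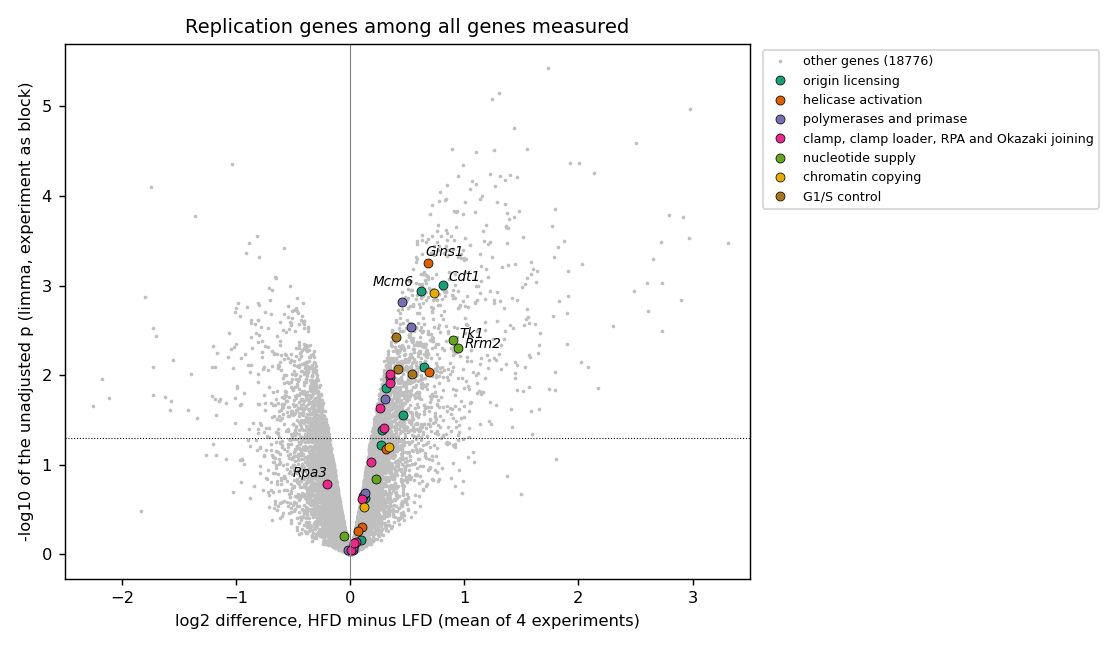
Each point is 1 gene, with the mean log2 difference (HFD minus LFD, 4 experiments) on the x axis and -log10 of the unadjusted p from limma with experiment as a block on the y axis; coloured points are the 44 replication genes by role and grey points all other genes. The coloured points lie mostly to the right of 0, 22 of them above the dotted line at p 0.05, and their differences stay within 0.94 while other genes reach 3.31.

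The size of the difference varied between experiments. The median over the 44 genes was 0.17, 0.45, 0.30 and 0.20 in experiments 1, 2, 3 and 4. A difference above 0 was measured for 33, 41, 37 and 32 of the 44, against 8615, 10082, 8103 and 9904 of all 18820 genes. Differences over 0.5 were measured for 7 members (15.9%, against 5.69% of all genes) in experiment 1, 20 (45.5%, against 9.73%) in experiment 2, 13 (29.5%, against 9.12%) in experiment 3 and 4 (9.09%, against 7.43%) in experiment 4. In experiment 4 the share was thus near that of all genes. The 2 experiments with small medians, 1 and 4, differed from each other in fat content and in duration.

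**Figure D2:**
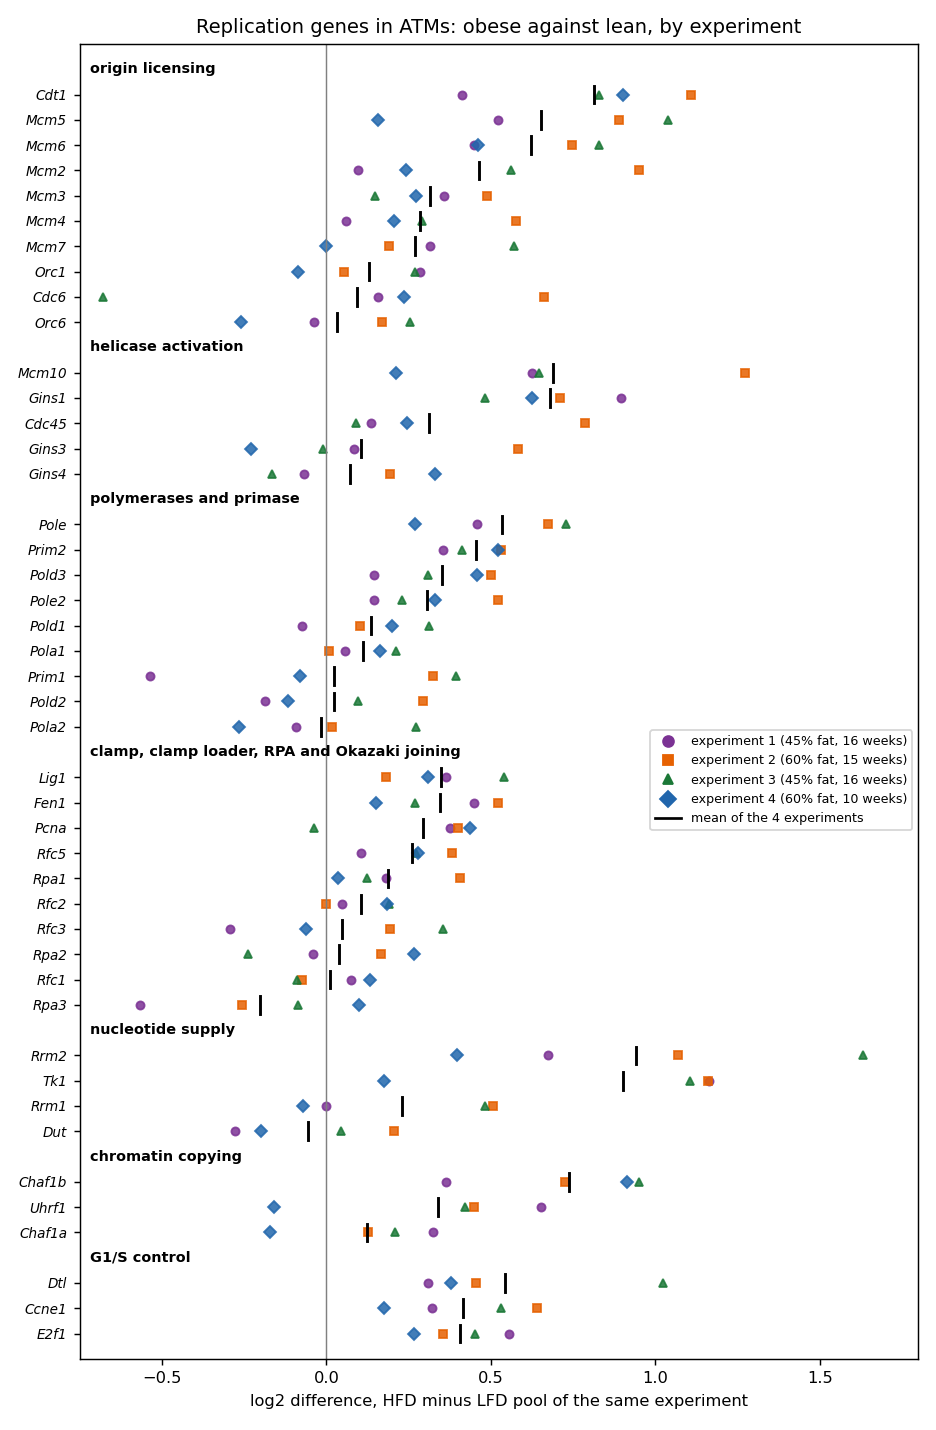
Log2 difference (HFD minus LFD) of each of the 44 genes on the x axis, grouped by role and ordered by the mean within each role; each symbol is 1 experiment and the black bar marks the mean of all 4. All symbols lie right of 0 for 24 genes, among them Cdt1, Mcm5 and Mcm6 at the top of origin licensing, while Rpa3 is the gene with 3 symbols left of 0.

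The promoters of these genes share letters that the choice of members did not use. Of the 44 genes, 38 had a window in a RefSeq promoter table (GRCm38.p6), which spans 250 bases before to 50 bases after an annotated start. The windows were searched on both strands for the E2F words TTTCCCGC, TTTGGCGC, TTTCGCGC and TTTGCCGC, for CCAAT, the word bound by NF-Y, and for TTTGAA, the core of the CHR element of many mitosis genes. An E2F word was found in a window of 16 of 38 genes (42.1%), against 2.6% of all genes in the table and 3.55% of those on the array. These were Cdc6, Cdt1, Dtl, Gins3, Lig1, Mcm3, Mcm5, Mcm6, Mcm7, Orc1, Pola1, Pold1, Pold3, Pole2, Rfc3 and Uhrf1. CCAAT was found in 24 of 38 (63.2%, against 41.1% of all genes in the table and 41.9% of those on the array), and 10 windows held both. TTTGAA was found in 5 of 38 (13.2%, against 20.2% in the table and 17.3% on the array). Where a gene had several windows, the one with the most E2F matches was kept for the positions and for the 10 windows with both. Its start can lie inside the annotated gene, as for Orc1, Lig1, Uhrf1 and Cdc6. Overlapping E2F words were counted as 1 match, which gave 20 matches. The first base of each lay between -185 and 39 from the start of its window. In Mcm7 an E2F match and a CCAAT overlapped. The members with an E2F word had a median difference of 0.31 and those without one of 0.24, and 9 of 16 against 11 of 22 were higher in all 4 experiments (no test was made). The 4 upstream stretches shown are those of Mcm5 and Mcm6 (the licensing genes of lowest p), Dtl and Rrm2 (the gene of the largest difference, with no E2F word), 5′ to 3′ on the strand of the gene and ending at the base before the annotated gene, with E2F words and CCAAT of either strand in capitals. Mcm5 lies on the plus strand at chr8:75109259-75109467, Mcm6 on the minus strand at chr1:128359706-128359955, Dtl on the minus strand at chr1:191575545-191575794 and Rrm2 on the plus strand at chr12:24708004-24708253.
Mcm5: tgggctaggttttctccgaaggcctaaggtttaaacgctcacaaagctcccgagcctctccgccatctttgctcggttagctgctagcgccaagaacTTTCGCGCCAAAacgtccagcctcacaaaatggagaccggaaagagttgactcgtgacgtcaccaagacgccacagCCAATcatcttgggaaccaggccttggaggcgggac
Mcm6: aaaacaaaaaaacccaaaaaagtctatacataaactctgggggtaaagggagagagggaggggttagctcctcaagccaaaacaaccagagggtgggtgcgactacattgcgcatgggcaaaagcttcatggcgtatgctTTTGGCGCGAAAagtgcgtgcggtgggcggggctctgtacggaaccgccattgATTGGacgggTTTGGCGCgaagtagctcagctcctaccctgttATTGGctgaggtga
Dtl: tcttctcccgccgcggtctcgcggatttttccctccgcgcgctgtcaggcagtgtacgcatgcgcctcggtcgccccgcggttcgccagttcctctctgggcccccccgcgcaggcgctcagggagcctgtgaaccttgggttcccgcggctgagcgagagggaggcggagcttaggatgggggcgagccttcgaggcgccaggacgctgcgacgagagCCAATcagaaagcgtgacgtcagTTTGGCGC
Rrm2: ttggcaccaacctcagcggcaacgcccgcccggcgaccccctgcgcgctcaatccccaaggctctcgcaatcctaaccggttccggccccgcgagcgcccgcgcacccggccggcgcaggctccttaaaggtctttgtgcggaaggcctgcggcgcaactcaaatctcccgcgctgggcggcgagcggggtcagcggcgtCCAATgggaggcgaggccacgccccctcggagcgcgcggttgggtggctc
In these stretches Mcm6 has 2 separate E2F runs and 2 CCAAT words, Mcm5 and Dtl have 1 of each, and Rrm2 has a single CCAAT. A match is a description of letters, and no binding was measured here.

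**Figure D3:**
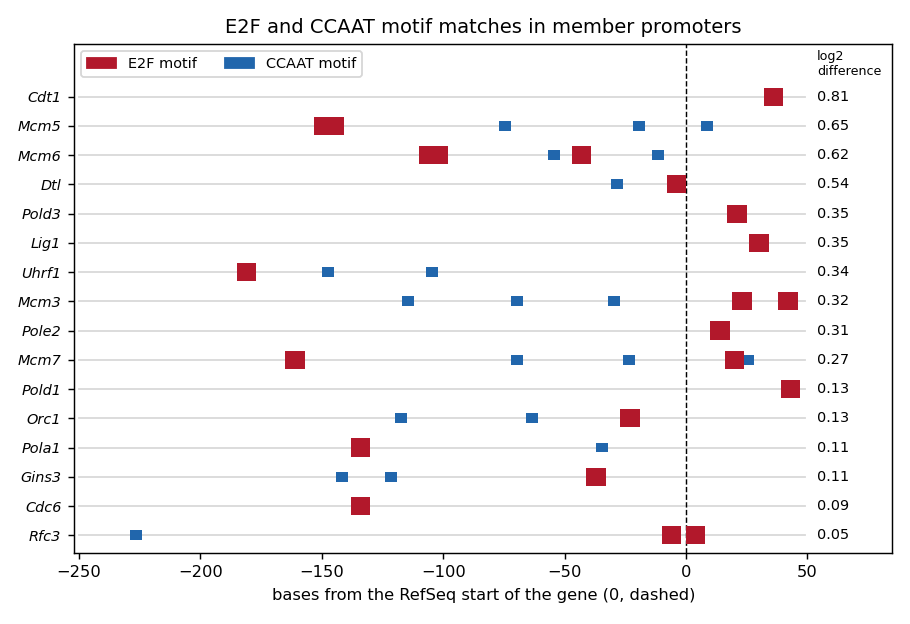
Positions of E2F words (red) and CCAAT (blue) for the 16 genes with an E2F word, ordered from top to bottom by the log2 difference (HFD minus LFD) printed at the right. The x axis gives bases from the RefSeq start (dashed line at 0) of the window with the most E2F matches, which for some genes lies inside the annotated gene. E2F words lie on both sides of the start, in genes with large (Cdt1, 0.81) and small differences (Rfc3, 0.05).

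Origin licensing genes were higher in obese ATMs by a median of 0.30 over 10 genes, and 6 of the 10 were higher in all 4 experiments (against 11% of all genes). Mcm6, a subunit of the MCM ring, was at 6.59, 7.16, 7.68 and 7.27 in the HFD pools of experiments 1 to 4 and at 6.14, 6.41, 6.86 and 6.81 in the LFD pools. The HFD pool was the higher one in every experiment, but the HFD pool of experiment 1 lay below the LFD pools of experiments 3 and 4. Its means were 7.18 ± 0.45 and 6.55 ± 0.34 (SD, n = 4 pools each), a difference of 0.62 (SE 0.26, 0.10 with the block). Mcm5, another subunit of the ring, was at 5.67, 6.30, 7.0 and 6.34 in HFD pools and 5.15, 5.41, 5.96 and 6.19 in LFD pools, a difference of 0.65 (SE 0.32). The diets overlapped, and experiment 4 had the smallest gap of Mcm5, 0.16. The largest mean difference of this role, 0.81 (SE 0.42, 0.13 with the block), was that of Cdt1, the MCM loader. The values of Cdt1 were looked up after the differences were seen. It was at 5.46, 6.73, 7.05 and 7.05 in HFD pools and 5.04, 5.62, 6.22 and 6.15 in LFD pools. The HFD pools of experiments 2 to 4 were above every LFD pool, and that of experiment 1 was not. Mcm2 (0.46), Mcm3 (0.32) and Mcm4 (0.28) were also higher in all 4 experiments. Mcm7 (0.27), Orc1 (0.13) and Cdc6 (0.09) were higher in 3, and Orc6, a subunit of the origin recognition complex like Orc1, in 2 (0.03). Orc1 was dim, which here means a log2 level under 4.32, on all 8 arrays. With the block, 6 of 10 had an unadjusted p under 0.05 (against 7.95% of all genes higher), namely Cdt1, Mcm2, Mcm3, Mcm4, Mcm5 and Mcm6.

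**Figure D4:**
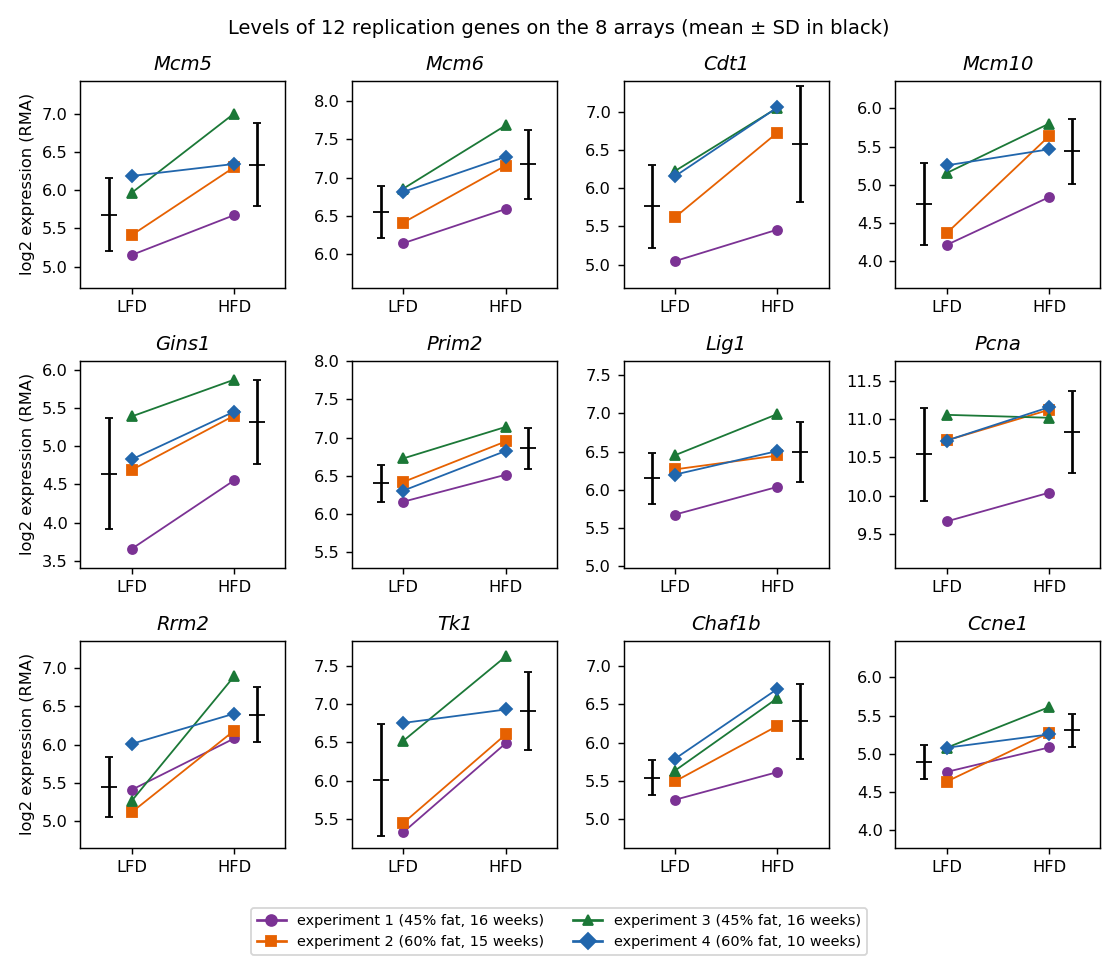
Log2 level (y axis, every panel of the same height) of 12 genes in the LFD and HFD pool (x axis), with a line joining the pools of each of the 4 experiments and black bars for the mean ± SD of 4 pools. Every line goes up from LFD to HFD except that of experiment 3 for Pcna, and experiment 1 starts lowest in most panels.

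The genes that activate the helicase had a median difference of 0.31 over 5 genes. Mcm10, which helps to start the unwinding of DNA, was at 4.84, 5.64, 5.80 and 5.46 in HFD pools and 4.21, 4.37, 5.15 and 5.25 in LFD pools, a difference of 0.69 (SE 0.31). Cdc45, a core part of the active helicase, was at 4.88, 5.01, 5.0 and 5.07 in HFD pools and 4.75, 4.22, 4.91 and 4.83 in LFD pools, a difference of 0.31 (SE 0.15). In Cdc45 the HFD pools lay close together, and the gap of 0.79 in experiment 2 came with the lowest LFD value. The 3 GINS subunits that were measured, which form 1 complex, differed in size. Gins1 was at 4.55, 5.40, 5.87 and 5.45 in HFD pools and 3.66, 4.69, 5.39 and 4.83 in LFD pools, values looked up after the differences were seen. The diets overlapped between experiments, while the gap within each experiment was 0.90, 0.71, 0.48 and 0.63. With the block the SE of Gins1 was 0.10, against 0.41 without it, and that of Mcm10 was 0.18. Gins3 and Gins4 had differences of 0.11 (SE 0.19) and 0.07 (SE 0.16), each higher in 2 of 4 experiments. Gins3 was dim on 5 arrays, and differences between the subunits were not tested.

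Among the polymerases and primase the differences split within complexes. Prim2, the large subunit of primase, was at 6.52, 6.95, 7.14 and 6.83 in HFD pools and 6.16, 6.42, 6.73 and 6.31 in LFD pools. The gap was 0.35, 0.53, 0.41 and 0.52 in experiments 1 to 4, and the mean difference was 0.45 (SE 0.17). Prim1, the catalytic subunit of the same enzyme, differed by 0.02 (SE 0.28), with the HFD pool above in 2 experiments and below in the other 2. Pold3, an accessory subunit of polymerase delta, was at 6.84, 7.26, 7.35 and 7.42 in HFD pools and 6.70, 6.76, 7.04 and 6.97 in LFD pools, a difference of 0.35 (SE 0.15). Here the HFD pools of experiments 2 to 4 were above every LFD pool. Pold1, the catalytic subunit of polymerase delta, and Pold2, a further subunit, differed by 0.13 (SE 0.10) and 0.02 (SE 0.11). Pole and Pole2, the catalytic subunit and a further subunit of polymerase epsilon, were higher in all 4 experiments, by 0.53 (SE 0.29, 0.11 with the block) and 0.31 (SE 0.19, 0.09 with the block). Pola1, the catalytic subunit of polymerase alpha, was higher in all 4 by a mean of 0.11 (SE 0.20), and Pola2, its partner, differed by -0.02 (SE 0.37). Whether subunits of 1 enzyme differ from each other was not tested.

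The clamp, its loader, the single-strand binding protein RPA and the enzymes that join Okazaki fragments had a median difference of 0.15 over 10 genes, and 4 were higher in all 4 experiments (against 11% of all genes). Pcna, the sliding clamp, was at 10.04, 11.12, 11.02 and 11.16 in HFD pools and 9.66, 10.72, 11.06 and 10.72 in LFD pools, a difference of 0.29 (SE 0.36, 0.11 with the block). Both pools of experiment 1 were below the others, and the HFD pool was the higher one in experiments 1, 2 and 4. Lig1, the ligase of Okazaki fragments, was at 6.04, 6.45, 6.99 and 6.51 in HFD pools and 5.68, 6.27, 6.45 and 6.20 in LFD pools, a difference of 0.35 (SE 0.23, 0.09 with the block). Rpa1, the large subunit of RPA, was at 6.31, 6.40, 6.49 and 6.31 in HFD pools and 6.13, 5.99, 6.37 and 6.27 in LFD pools, a difference of 0.19 (SE 0.10). For both genes the HFD pool was the higher one in every experiment, with the diets overlapping. Rpa2 differed by 0.04 (SE 0.20). Rpa3, the small subunit, was at 4.62, 5.45, 5.09 and 5.08 in HFD pools and 5.18, 5.71, 5.18 and 4.98 in LFD pools, the lowest difference of the 44 genes at -0.20 (SE 0.21). It was lower in experiments 1 to 3 and higher in experiment 4. A second probe set of Rpa3 differed by -0.25, but its signs in experiments 1 and 4 were the other way round. It was higher in the HFD pool of experiment 1, at 5.21 against 5.0, and lower in that of experiment 4, at 4.66 against 5.09. Fen1, the flap nuclease, was higher in all 4 experiments (0.35, SE 0.30, 0.09 with the block). Its second probe set differed by -0.17, at a mean level of 3.82, which is under the dim limit. Of the clamp loader, Rfc5 was higher in all 4 experiments (0.26, SE 0.26, 0.08 with the block), and Rfc1 (0.01), Rfc2 (0.11) and Rfc3 (0.05) in 2 or 3. Rfc2 had the same value in both pools of experiment 2, and such exact repeats between arrays were present in 10 of 44 members and in 44.4% of all genes.

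Nucleotide supply held the largest differences, in 2 of its 4 genes. Rrm2, the S-phase subunit of ribonucleotide reductase, was at 6.08, 6.18, 6.89 and 6.40 in HFD pools and 5.41, 5.11, 5.26 and 6.01 in LFD pools. The diets did not overlap. The means were 6.39 ± 0.36 and 5.45 ± 0.39 (SD, n = 4 pools each), a difference of 0.94 (SE 0.24), which is 1.92-fold. Tk1, the cytosolic thymidine kinase, was at 6.49, 6.60, 7.62 and 6.93 in HFD pools and 5.32, 5.44, 6.52 and 6.75 in LFD pools, a difference of 0.90 (SE 0.40, 0.19 with the block). The gap of Tk1 was 1.16, 1.16 and 1.10 in experiments 1, 2 and 3 and 0.18 in experiment 4, where the LFD pool was the highest of its diet. A second probe set of Tk1 differed by 0.52, but in experiment 4 it was lower in the HFD pool, at 6.13 against 6.31. Rrm1, the large subunit of the reductase, differed by 0.23 (SE 0.14), with gaps of 0.51 and 0.48 in experiments 2 and 3 and of -0.0006 and -0.07 in experiments 1 and 4. Dut, which removes dUTP, differed by -0.06 (SE 0.15).

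Of the factors that copy chromatin, Chaf1b, a subunit of the histone chaperone CAF-1, was at 5.61, 6.22, 6.58 and 6.70 in HFD pools and 5.25, 5.49, 5.63 and 5.79 in LFD pools. Its difference was 0.74 (SE 0.24, 0.12 with the block). The HFD pool of experiment 1 fell among the LFD pools and the other 3 lay above all of them. Uhrf1, which carries DNA methylation onto new strands, was at 4.88, 5.30, 5.78 and 5.30 in HFD pools and 4.23, 4.86, 5.36 and 5.46 in LFD pools, a difference of 0.34 (SE 0.30). It was higher in experiments 1 to 3 and lower in experiment 4. Chaf1a, the large subunit of CAF-1, followed the same signs, with a difference of 0.12 (SE 0.17).

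All 3 regulators of entry into S phase were higher in all 4 experiments (against 11% of all genes). Ccne1, cyclin E1, was at 5.09, 5.28, 5.61 and 5.26 in HFD pools and 4.76, 4.64, 5.08 and 5.08 in LFD pools. The lowest HFD pool stood just above the highest LFD pools, and the difference was 0.42 (SE 0.15). Dtl, the adaptor of the ligase that removes Cdt1 in S phase, was at 4.67, 5.08, 6.11 and 5.25 in HFD pools and 4.37, 4.63, 5.09 and 4.87 in LFD pools, a difference of 0.54 (SE 0.31). The gap was widest in experiment 3, at 1.02. E2f1, an activating E2F factor, was higher by 0.55, 0.35, 0.45 and 0.27 in experiments 1 to 4. Its mean difference was 0.41 (SE 0.42, 0.09 with the block). With the block all 3 had an unadjusted p under 0.05 (against 7.95% of all genes higher). The SD of E2f1 over pools, 0.63 in HFD and 0.71 in LFD, was larger than its difference, but it includes the spread between experiments.

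Other genes of the pathway, outside the list of 48, were read the same way. Their lists and that of mitosis were also chosen with earlier results of these data known. Of 29 further replication genes, 11 (37.9%, against 11% of all genes) were higher in all 4 experiments and 0 lower (against 7.43%), with a median difference of 0.14. At an unadjusted p under 0.05 in limma 3 were higher (against 3.3%) and 0 lower. Clspn, a checkpoint adaptor at the fork, was at 4.58, 5.19, 5.35 and 5.16 in HFD pools and 3.92, 4.12, 4.89 and 4.43 in LFD pools, a difference of 0.73 (SE 0.25). Dna2, a nuclease of Okazaki fragments, differed by 0.63 (SE 0.23), while Orc5 (-0.17) and Rnaseh2c (-0.12) had differences below 0. Of 17 further nucleotide genes, 2 were higher (11.8%) and 2 lower (11.8%) in all 4 experiments, with a median of 0.05, and the share higher was near that of all genes. Rrm2b, the p53-controlled reductase subunit that works outside S phase, was at 5.25, 4.88, 4.96 and 4.84 in HFD pools and 5.48, 5.25, 5.48 and 5.25 in LFD pools, a difference of -0.39 (SE 0.12). It was lower in the HFD pool of all 4 experiments, the opposite sign to Rrm2, and the 2 genes were not tested against each other. Umps and Cad, enzymes of pyrimidine synthesis, differed by 0.37 (SE 0.23) and 0.12 (SE 0.10), and Dhodh, of the same route, by -0.26 (SE 0.13). Of 20 further regulators of G1 and S phase, 3 (15%) were higher and 1 (5%) lower in all 4 experiments, also near the shares of all genes. E2f8, a repressing E2F factor that is itself made in S phase, differed by 0.90 (SE 0.35), and Cdkn1a, the p21 inhibitor, by 0.53 (SE 0.22). Cdkn1b, the p27 inhibitor, and Rbl2, a retinoblastoma relative of resting cells, differed by -0.32 (SE 0.18) and -0.25 (SE 0.17).

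Genes of mitosis were read as the nearest comparison. Of 21 such genes 16 (76.2%, against 11% of all genes) were higher in all 4 experiments and 0 lower, with a median difference of 0.63, against 0.29 for the replication genes. The mean level of the mitosis list differed by 0.61, 0.84, 0.84 and 0.14 in experiments 1 to 4, and that of the 44 replication genes by 0.21, 0.45, 0.37 and 0.19. By these means experiment 4 had the smallest gap in both lists. By the median over genes, the smallest gap of the replication genes was that of experiment 1 (0.17, against 0.20 in experiment 4). Mki67, the proliferation marker, was at 7.46, 8.30, 8.48 and 7.97 in HFD pools and 6.65, 6.92, 7.25 and 7.52 in LFD pools, a difference of 0.97 (SE 0.26). Cenpe, a kinetochore motor, differed by 0.78 (SE 0.23). The difference between the 2 lists was not tested.

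The replication genes were also set beside markers of the cells that the pools could hold. All 12 macrophage markers were measured, and their mean level ran from 8.45 to 9.93 in HFD pools and from 7.19 to 10.31 in LFD pools, with differences of 1.26, -0.11, -0.58 and 0.05 in experiments 1 to 4. All 16 endothelial markers were measured, with means from 7.29 to 10.17 in HFD pools and 5.70 to 10.53 in LFD pools and differences of -0.36, -0.85, 1.97 and -1.68. The mean over the 44 replication genes differed by 0.21, 0.45, 0.37 and 0.19 in the same experiments. Fibroblast and progenitor markers (10 genes) differed by -0.01, 0.77, 1.27 and -0.47, so that they were higher in the HFD pool of experiments 2 and 3, where the replication genes also had their larger differences. The mean of the B cell list (7 genes) differed by -0.29, -0.16, -0.32 and -0.26. That of the dendritic cell list (8 genes) differed by -0.01, -0.50, -0.62 and -0.24, and that of the T cell list (9 genes) by -0.09, -0.15, -0.02 and -0.21. These 3 means were lower in the HFD pool of every experiment, where the mean of the replication genes was higher. The medians over genes were not all below 0. They were -0.36, 0.01, -0.21 and -0.06 for B cell markers and -0.01, 0.08, -0.08 and -0.10 for dendritic cell markers. For T cell markers they were 0, -0.01, -0.02 and 0. Siglech, a marker of plasmacytoid dendritic cells, was at 4.09, 4.63, 4.16 and 4.84 in HFD pools and 4.68, 7.30, 6.36 and 6.26 in LFD pools, and Cd4 differed by -1.04 (SE 0.55). Each was the lowest of its list and the only gene in it that was lower in all 4 experiments. The mean difference was above 0 for 2 of 8 dendritic cell markers and 4 of 9 T cell markers, and the list medians were -0.06 and -0.05. Neutrophil markers differed by 0.09, -0.10, -0.22 and -0.20, adipocyte markers by 0.30, -0.31, 0.30 and -0.56 and mesothelial markers by 0.01, 0.75, 0.04 and -0.75. Markers of T cells, B cells and neutrophils were dim on more than 4 arrays for 6 of 9, 6 of 7 and 6 of 7 genes, and those of dendritic cells for 4 of 8. RMA values have no zero, so none of these markers can be called absent, and the part of these cells in the differences was not tested.

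**Figure D5:**
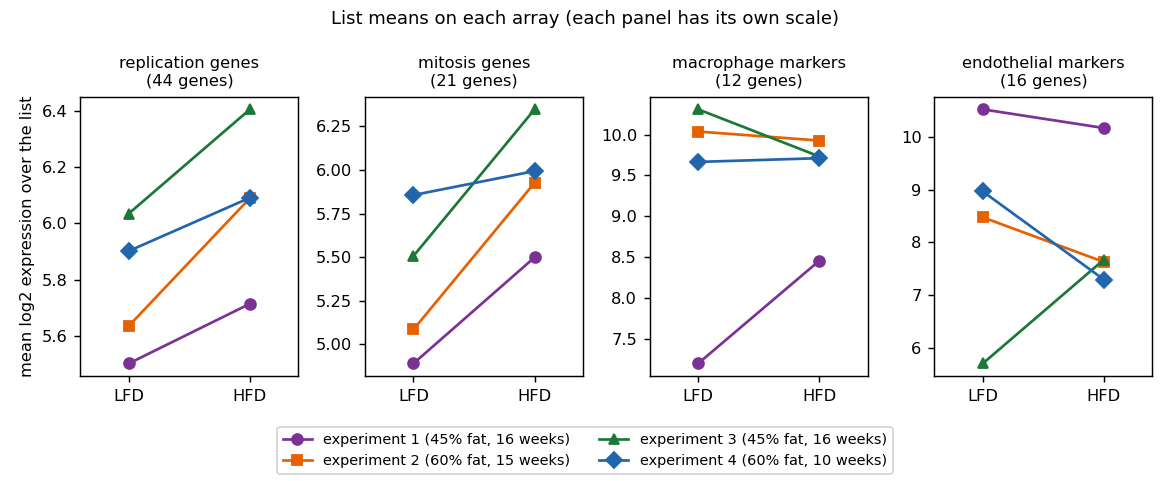
Mean log2 level of 4 gene lists (y axis, each panel with its own scale) in the LFD and HFD pool (x axis), with a line joining the pools of each experiment. The replication and mitosis lists go up in all 4 experiments, while the macrophage and endothelial lists go up in some and down in others.

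The fat content of the HFD was compared by asking whether the difference in experiments 2 and 4 (60% of energy) departed from that in experiments 1 and 3 (45%). In limma with experiment as a block, 0 members reached an unadjusted p under 0.05, against 3.95% of all genes, and the smallest adjusted p of a member was 0.951. The estimates ran from -0.47 for Tk1 to 0.71 for Cdc6, with a median of 0.04 and standard errors from 0.16 to 0.42. Experiment 4 also had the shortest diet, and fat content and duration cannot be told apart there.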

How the data were processed

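ATMs were profiled on 8 Affymetrix whole-transcript arrays, 1 for each pool. The values are log2, deposited by the authors after RMA (background correction, quantile normalisation and summary of probes). The version and the genome build are not given in the sources used here. For the length of the diets the labels were followed, which differ from the 16 weeks in the paper: 16, 15, 16 and 10 weeks. Of 35556 features, 21218 had 1 symbol in the platform annotation, 1881 several and 12457 none. Of the 18820 genes, 18790 matched a RefSeq gene by Entrez ID and 0 symbols changed. The members and lists were chosen with earlier results of these data known.

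HFD and LFD were compared in limma 3.58.1 (R 4.3.3, lmFit and eBayes) with Benjamini-Hochberg adjustment over all genes, without a block. The paper's general statistics name a 2-group test with no block, and its array analysis is described in supplementary methods that were not used here. The 2 pools of an experiment shared their deviations from the mean of each diet (r across genes, which are not replicates, of 0.889, 0.357, 0.652 and 0.186 in experiments 1 to 4), and the labels and the paper place them in 1 experiment, so the experiment pairs the samples. The HFD pools of experiments 2 and 4 nevertheless correlated best with the LFD pool of experiment 3. Standard errors come from the fit without the block unless the block is named. P-values measure the spread between pools, each of several mice. The number of arrays limits the precision. Values on every array are given for the 2 members of smallest p in each role, the brightest member (Pcna), the largest and smallest differences and genes lower in 3 of 4 experiments, and the 2 genes of smallest p in each direction of each other pathway list are named, but of the marker lists, which are given as lists, only Adgre1, Pecam1, Siglech and Cd4. Alternatives were the block (fixed or random), leaving out each array, experiment 1 or 4, or dim probe sets (under a log2 of 4.32, an intensity of 20, on more than 4 arrays), median centring, quantile normalisation, the mean of probe sets, the methods' t-test, and a trended robust prior. Leaving out experiment 1 with the block was added after seeing the data.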

Additional observations from a re-analysis of the deposited data

Results flagged for a closer look

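Within each diet, 3 of the 88 sets of 4 values (44 genes, 2 diets) held a pool that stood far from the other 3, where about 4.4 would be found by chance. Pcna was lowest in the HFD pool of experiment 1, at 10.04 against 11.02 to 11.16 in the other HFD pools. Rfc3 was highest in the LFD pool of experiment 3, at 5.76 against 5.50 to 5.52. Rrm1 was lowest in the LFD pool of experiment 2, at 6.68 against 6.92 to 6.94.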

How the results depend on the processing

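The median difference of the 44 genes stayed above 0 under every alternative run (0.16 to 0.41), and 20 to 28 were higher in all experiments used. These counts are not alike, because leaving out an array or an experiment leaves 3 experiments, where more genes keep 1 sign. The share of all genes was 11% over 4 experiments (24 members) and 17.4% over experiments 2, 3 and 4 (25 members). The number higher at an unadjusted p under 0.05 did not stay at 6. With the share of all genes higher in brackets (3.3% for the 6), it was 22 with experiment as a block (7.95%) and 17 with a random block (7.24%), 11 without experiment 1 (6.26%) and 21 with the block added to that (7.15%), 3 without experiment 4 (1.87%), 21 without dim probe sets and with the block (11.4%), 2 after median centring (1.66%) and 3 after quantile normalisation (2.45%). Leaving out 1 array gave 2 to 15 (1.7% to 5.68%). The methods' t-test gave 4 members, and over all genes 524 higher and 286 lower, with 0 after Benjamini-Hochberg. In limma the adjusted count over all genes was 0 (unadjusted: 621 higher and 284 lower), except without dim probe sets and with the block, where 25 of 10623 genes passed, none of them a member. After quantile normalisation the unadjusted split was 462 higher and 455 lower. The test of fat content called 0 genes in every setting run. Members with differences near 0 changed sign, and the cause was not tested. Without experiment 1, with or without the block, Pola2 was at 0.0082, Rfc1 at -0.0094 and Dut at 0.017. Without experiment 4, Gins4 was at -0.0139, Pola2 at 0.066, Rfc1 at -0.0293 and Rpa2 at -0.0382. After median centring Orc6 was at -0.0208, Prim1 at -0.0275, Pold2 at -0.0298, Rfc1 at -0.0407, Rfc3 at -0.0043 and Rpa2 at -0.0143. After quantile normalisation Orc6 was at -0.0183, Prim1 at -0.0191, Pold2 at -0.0235 and Rfc1 at -0.0384. Leaving out 1 array gave ranges across 0 for Orc6 (-0.12 to 0.20), Cdc6 (-0.0116 to 0.34), Gins3 (-0.0593 to 0.22), Gins4 (-0.008 to 0.19), Pola1 (-0.02 to 0.25), Pola2 (-0.29 to 0.28), Prim1 (-0.17 to 0.29), Pold2 (-0.0619 to 0.0736), Rfc1 (-0.0693 to 0.11), Rfc3 (-0.12 to 0.18), Rpa2 (-0.0835 to 0.22), Dut (-0.14 to 0.0552) and Chaf1a (-0.02 to 0.22). The experiment block moved no member across the adjusted threshold. Signals of Orc1 and Gins3 near the background limit their differences.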
